A study of Mus musculus with 96 samples.

Results

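The genes described here are 10 genes of fat storage in liver cells, namely Cidea, Cideb, Cidec, Plin2, Plin4, Plin5, G0s2, Mogat1, Fitm2 and Pparg. They were taken as every probe set annotated to exactly 1 of these symbols, which gave 11 probe sets (2 for Plin5, 1 for each other gene) out of 34958 with a single symbol. All 11 passed the filter on dim probe sets, so 10 of the 14816 genes tested are described. The genes were selected on their log2 signals in the 12 strain and diet groups of these arrays, so their levels and diet differences are a description with no test.

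Liver RNA of 96 male mice was hybridised to Affymetrix arrays, each mouse to an array of its own. There were 5 inbred strains (CBA/J, DBA/2J, 129S1/SvImJ, C3H/HeJ and C57BL6/J) and B6C3F1/J, the cross of the last pair. All mice arrived at 6 weeks of age, lived in single cages and ate 84 kcal weekly of an AIN93M-based diet for their first 2 weeks. From 8 weeks of age, 8 mice of each strain stayed on the control diet and 8 received a diet with 25% fewer calories, and liver was taken at 22 weeks. Values are log2 of the deposited signal. Each group value is the mean ± SD of 8 mice, and each diet difference is restricted minus control ± the SE of the limma fit. Levels are compared between groups for 1 gene at a time and not between genes, since probe sets differ in brightness.

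Liver cells keep triglyceride in droplets, each a core of neutral fat inside a single layer of phospholipid coated with proteins. Perilipins cover the droplet and hold lipases off or recruit them, and CIDE proteins sit where droplets touch and pass fat from the smaller droplet to the larger. G0s2 blocks adipose triglyceride lipase, the enzyme of the initial step of fat breakdown, Mogat1 makes diacylglycerol from monoacylglycerol, and Fitm2 acts where droplets bud from the endoplasmic reticulum. Pparg encodes a nuclear receptor that drives fat storage genes in adipocytes and in fatty liver, and Cidea, Cidec, Plin4 and Mogat1 are among the genes known to respond to it.

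Upstream sequence is shown for Plin2, Plin5, Cidec, Mogat1 and G0s2, which had a called diet difference in 129S1/SvImJ or C57BL6/J. Cidea had one too and is named only. Each window is the part of the 250 bases before an annotated start that lies outside the span of the gene, read 5′ to 3′ on the strand of the gene from RefSeq sequence of build GRCm38.p6. The sources used here name no build for the probe sets of the array. Capitals mark matches to AGGTCA, the half-site that nuclear receptors such as PPAR-gamma and its partner RXR bind, searched on both strands (on the opposite strand it reads TGACCT).
Plin2, chr4:86670218-86670309, minus strand: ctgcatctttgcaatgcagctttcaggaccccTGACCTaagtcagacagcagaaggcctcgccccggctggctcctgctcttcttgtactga
Plin5, chr17:56117607-56117798, minus strand: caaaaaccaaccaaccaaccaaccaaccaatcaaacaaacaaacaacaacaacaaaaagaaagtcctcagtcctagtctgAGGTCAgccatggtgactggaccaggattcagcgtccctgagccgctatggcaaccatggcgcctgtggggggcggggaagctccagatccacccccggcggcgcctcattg
Cidec, chr6:113435761-113436010, minus strand: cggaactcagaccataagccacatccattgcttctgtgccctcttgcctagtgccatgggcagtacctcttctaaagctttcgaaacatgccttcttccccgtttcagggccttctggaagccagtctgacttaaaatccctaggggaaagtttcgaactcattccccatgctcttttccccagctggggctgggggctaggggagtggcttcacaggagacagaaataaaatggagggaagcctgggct
Mogat1, chr1:78510810-78511059, plus strand: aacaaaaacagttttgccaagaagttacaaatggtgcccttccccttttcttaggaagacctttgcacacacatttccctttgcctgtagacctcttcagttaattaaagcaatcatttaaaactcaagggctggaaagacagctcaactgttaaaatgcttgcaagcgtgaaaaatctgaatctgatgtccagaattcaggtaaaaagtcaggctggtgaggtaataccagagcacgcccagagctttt
G0s2, chr1:193273189-193273438, minus strand: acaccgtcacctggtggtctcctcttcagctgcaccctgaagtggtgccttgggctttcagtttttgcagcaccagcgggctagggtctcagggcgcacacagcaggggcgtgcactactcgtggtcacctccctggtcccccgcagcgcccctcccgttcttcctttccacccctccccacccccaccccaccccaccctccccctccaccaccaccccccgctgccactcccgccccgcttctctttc

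The match begins 218 bases before the start of Plin2 on the opposite strand and 170 bases before that of Plin5 on the same strand. The windows shown for Cidec, Mogat1 and G0s2 hold none. Of 13 windows of 250 bases for 9 of the 10 genes, 4 held AGGTCA, the other matches being in a pair of Pparg windows that lie inside the gene's span, at 28 and 9 bases before their starts. Among all 32851 such windows in the table, 4607 (14.0%) held it. The direct repeat AGGTCANAGGTCA, which contains AGGTCA, was in 0 of the 13 and in 11 of all windows (0.0335%).

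The probe sets and the positions of their genes in build GRCm38.p6 are as follows. Of the CIDE genes, Cidea (probe set 1417956_at) lies at chr18:67343564-67367794, Cideb (1418976_s_at) at chr14:55754052-55758424 and Cidec (1452260_at) at chr6:113424634-113435760. Of the perilipins, Plin2 (1448318_at) lies at chr4:86626910-86670217, Plin4 (1418595_at) at chr17:56100587-56109948 and Plin5 (1424937_at, with 1441915_s_at as its other probe set) at chr17:56111597-56117606. G0s2 (1448700_at) lies at chr1:193272160-193273188, Mogat1 (1419504_at) at chr1:78511060-78606964, Fitm2 (1454935_at) at chr2:163468703-163472629 and Pparg (1420715_a_at) at chr6:115360879-115490404. Plin4 and Plin5 are neighbours, with 1648 bases between them.

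The arrays were alike in scale with few exceptions. On 94 arrays the median log2 signal was from 6.208 to 7.504, and DBA/2J restricted replicate 6 and B6C3F1/J control replicate 2 stood apart at 8.29 and 8.66. In CBA/J the array median averaged 7.29 ± 0.20 in restricted mice against 6.52 ± 0.06 in controls, and those ranges did not overlap. Differences in CBA/J are therefore also given under quantile normalization and in a fit that holds the array median as a covariate, called the adjusted fit. Over all arrays the median averaged 6.706, and a group mean below that is called dim, with the size of any difference from it uncertain. In whole liver, fewer cells of a type and less RNA per cell cannot be told apart.

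**Figure D1:**
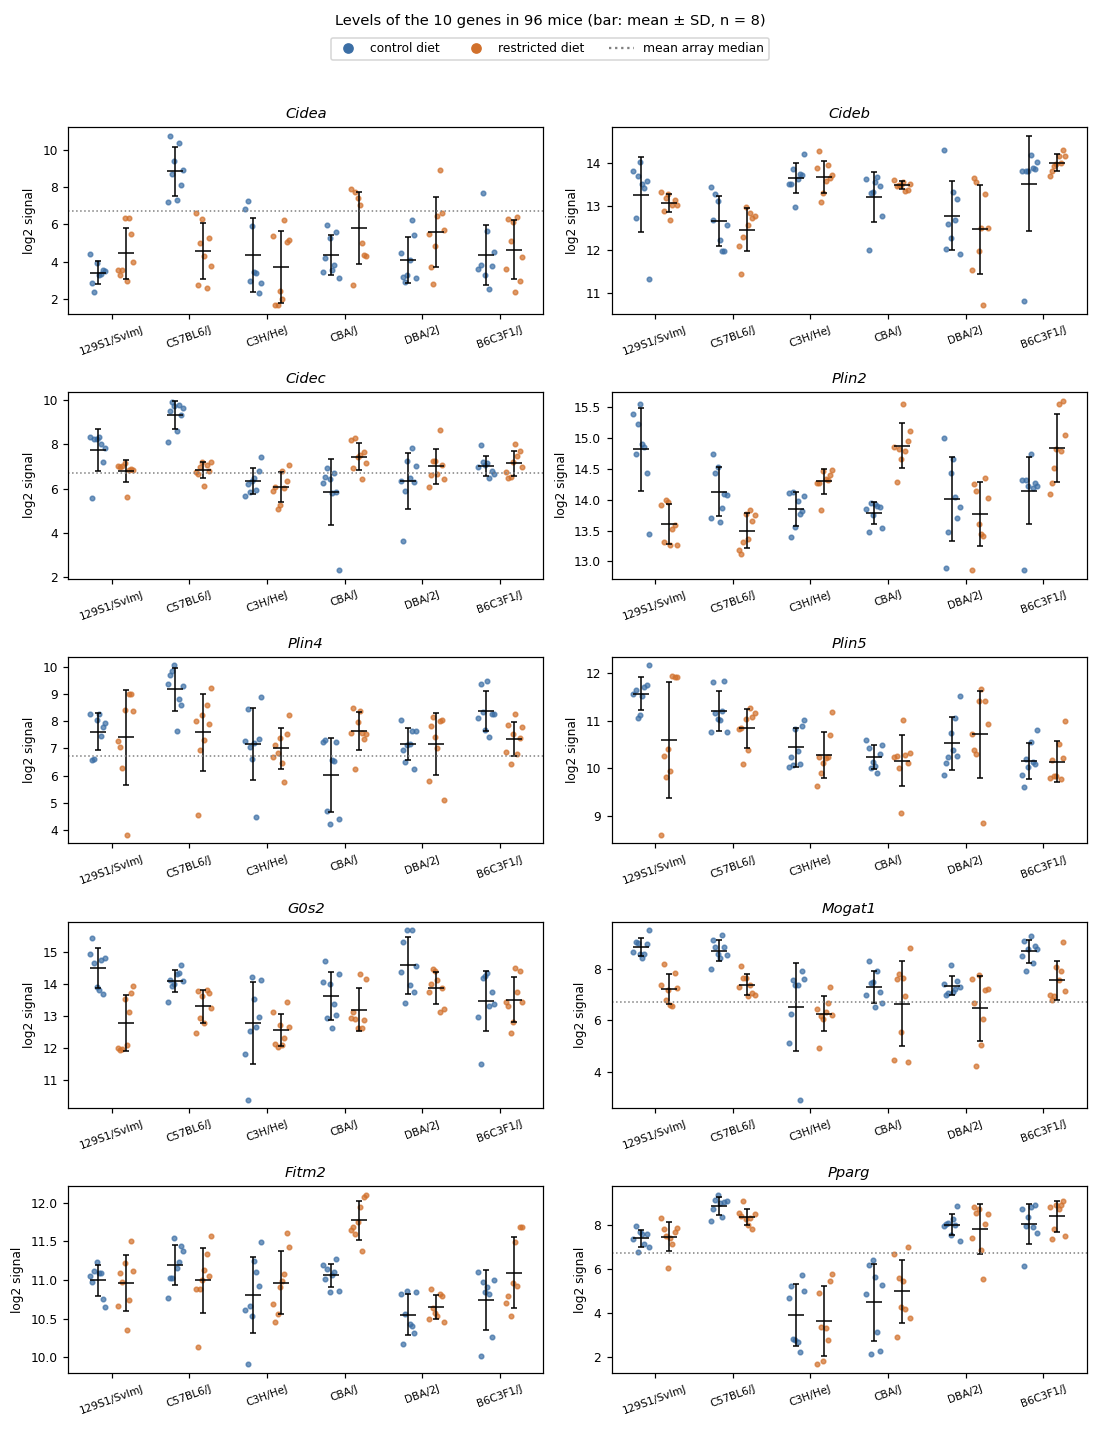
Log2 signal of each of the 10 genes (vertical axes) in every mouse by strain and diet, with 1 point per mouse and bars for mean ± SD of 8 mice. The dotted line is the mean array median of 6.706. Cidea stood above it in C57BL6/J control mice alone among the 12 group means, and Pparg lay below it in both diets of C3H/HeJ and CBA/J.

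Cidea, which enlarges droplets in brown fat and is scarce in lean liver, had a high group mean in C57BL6/J control mice alone. Their 8 livers ranged from 7.19 through a median of 8.79 to 10.74, and all 8 lay at or above their array median. The 8 restricted C57BL6/J mice ranged from 2.58 through 4.65 to 6.63, and 1 of them lay at or above its array median, so the groups did not overlap. The difference was −4.26 ± 0.77 (95% interval −5.79 to −2.73), or 19.19-fold, a size that is uncertain because the restricted group was dim. With 8.55 added to every signal before the log, it was −3.73. In the other 10 groups mean Cidea lay between 3.41 ± 0.63 in 129S1/SvImJ controls and 5.80 ± 1.95 in CBA/J restricted mice, and 0 to 3 of the 8 mice of each reached their array median. All of these groups were dim, so the differences of 1.03 ± 0.77 in 129S1/SvImJ, 1.43 ± 0.77 in CBA/J and 1.48 ± 0.77 in DBA/2J are of uncertain size. The CBA/J difference was 0.60 under quantile normalization and 0.80 in the adjusted fit.

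Cidec, which lets fat pass between droplets and is the CIDE gene best known from white fat, had its widest diet difference in the same strain. C57BL6/J controls ranged from 8.08 through 9.57 to 9.91 and restricted mice from 6.13 through 6.88 to 7.20, with no overlap. The difference was −2.48 ± 0.40 (95% interval −3.27 to −1.68), or 5.56-fold. On the control diet C57BL6/J stood highest at 9.32 ± 0.64, followed by 129S1/SvImJ at 7.72 ± 0.95 and B6C3F1/J at 7.03 ± 0.45. The gap of 1.6 at the top was larger than either SD. On the restricted diet C57BL6/J ranked 4 of 6 at 6.84 ± 0.35, and the ranges of neighbours in the order of levels overlapped throughout. In 129S1/SvImJ the difference was −0.93 ± 0.40, and no restricted mouse lay below the lowest control of 5.57. That control, replicate 2, stood apart from the next at 7.20, and the restricted mice lay between 5.61 and 7.15. In CBA/J the direction was the opposite, at 5.85 ± 1.48 in controls, a dim group, against 7.44 ± 0.62 in restricted mice. Control replicate 8 of CBA/J stood apart at 2.33, with the next at 5.79, and is part of that control mean. The CBA/J difference was 1.59 ± 0.40, and 7 of 8 restricted mice lay above the highest control. It was 0.90 under quantile normalization and 0.92 in the adjusted fit, and neither passed the threshold of adjusted p under 0.05.

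**Figure D2:**
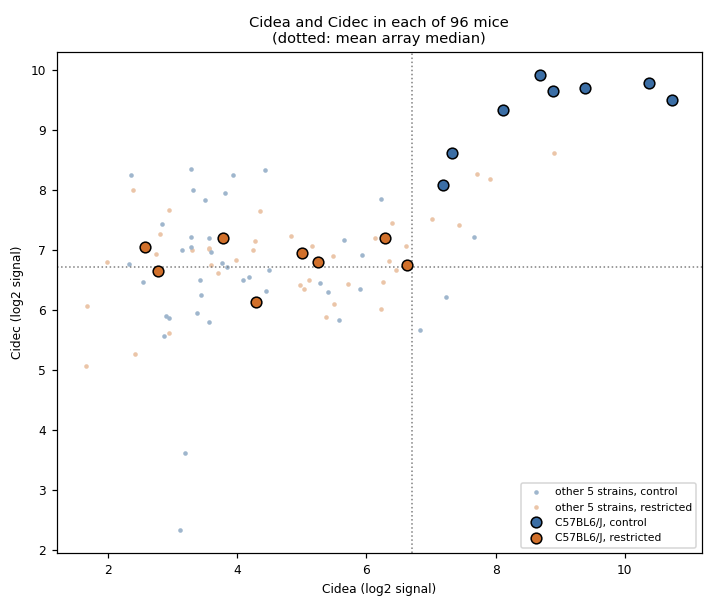
Log2 signal of Cidec (vertical axis) against Cidea (horizontal axis) in each of 96 mice, with C57BL6/J mice as large points and dotted lines at the mean array median of 6.706. The 8 C57BL6/J control mice sit together at the upper right, with Cidea from 7.19 to 10.74 and Cidec from 8.08 to 9.91. CBA/J restricted replicates 1 and 3 and DBA/2J restricted replicate 6 also fall within those ranges. The 8 restricted C57BL6/J mice lie among the other strains.

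Cideb, the CIDE gene of normal liver, where it takes part in loading fat onto very-low-density lipoprotein, was at or above the array median on all 96 arrays, and its diet difference did not pass the threshold in any strain. Group means ran from 12.46 ± 0.50 in C57BL6/J restricted to 14.00 ± 0.19 in B6C3F1/J restricted mice. The difference averaged over strains was 0.02 ± 0.13 (95% interval −0.24 to 0.27), and in single strains it lay between −0.31 in DBA/2J and 0.48 in B6C3F1/J. The B6C3F1/J control mean includes replicate 2, whose array stood apart, at 10.82 with the next mouse at 13.80. Medians in that strain were 13.83 in controls and 13.99 in restricted mice. In CBA/J the difference was 0.27 ± 0.31, and 0.18 under quantile normalization. In the adjusted fit it was 1.06 ± 0.32 and passed the threshold. C57BL6/J, the strain with the highest control levels of Cidea and Cidec, had the lowest Cideb on both diets, although it overlapped DBA/2J, the next in order (12.66 ± 0.58 against 12.78 ± 0.79 on the control diet). On restriction the 8 CBA/J mice were closely alike (13.48 ± 0.09) and all lay above the 8 of 129S1/SvImJ (13.07 ± 0.21).

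Plin2, the main droplet coat protein of liver cells and a common gauge of their fat content, was bright on every array and went in opposite directions in different strains. In 129S1/SvImJ it was lower on restriction, with controls from 13.44 through 14.87 to 15.55 and restricted mice from 13.27 through 13.56 to 14.00. The difference was −1.21 ± 0.22, or 2.31-fold, and 3 of 8 restricted mice lay below the lowest control. In C57BL6/J it was −0.64 ± 0.22, with 4 of 8 below the lowest control. In CBA/J restricted mice Plin2 was higher, at 14.29 through 14.84 to 15.56 against 13.48 through 13.87 to 13.95 in controls, with no overlap. That difference was 1.09 ± 0.22, and it was 0.69 under quantile normalization and 1.25 in the adjusted fit. In B6C3F1/J the difference was 0.69 ± 0.22, and in C3H/HeJ it was 0.45 ± 0.22, where 7 of 8 restricted mice lay above the highest control. B6C3F1/J control replicate 2 was low for Plin2 at 12.86, and without it the B6C3F1/J difference was 0.51 and no longer passed the threshold. It was 0.36 under quantile normalization, 0.35 with array weights and 0.63 in the adjusted fit, and passed in none of these. Averaged over strains, the difference was 0.02 ± 0.09, with 3 strains higher and 3 lower. The strain order turned over with diet: 129S1/SvImJ was highest on the control diet (14.82 ± 0.67) and the next to lowest on restriction (13.61 ± 0.32), and CBA/J went from lowest (13.79 ± 0.18) to highest (14.88 ± 0.36).

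Plin4, a perilipin of white fat that coats young droplets, was highest in C57BL6/J controls at 9.18 ± 0.80 and next highest in B6C3F1/J controls at 8.38 ± 0.73. Restricted mice of the 2 strains had 7.60 ± 1.42 and 7.37 ± 0.63, so that the differences were −1.58 ± 0.51 and −1.01 ± 0.51. In C57BL6/J, 3 of 8 restricted mice lay below the lowest control, and in B6C3F1/J 4 of 8 did. In CBA/J the level was 6.03 ± 1.37 in controls, a dim group, against 7.64 ± 0.71 on restriction, a difference of 1.62 ± 0.51 with 7 of 8 mice above the highest control. It was 1.04 under quantile normalization and 1.13 in the adjusted fit, again short of the threshold in both. On restriction the 6 strains lay between 7.01 and 7.64.

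Plin5, which ties droplets to mitochondria in tissues that burn fat, was highest in 129S1/SvImJ controls at 11.57 ± 0.35 and lower on restriction in that strain at 10.60 ± 1.23. The restricted mice were widely spread, from 8.60 through 10.34 to 11.95, and 5 of 8 lay below the lowest control of 11.07. The difference was −0.97 ± 0.29, and −1.30 ± 0.35 by the other probe set of the gene. On the control diet C57BL6/J came next at 11.20 ± 0.42, and the gap of 0.68 from it to DBA/2J was larger than either SD. By the other probe set 129S1/SvImJ and C57BL6/J controls were level at 11.62 ± 0.44 and 11.61 ± 0.37. CBA/J followed there at 10.90 ± 0.28, and DBA/2J stood at 10.35 ± 0.62. In the other 5 strains the diet differences by 1424937_at lay between −0.36 in C57BL6/J and 0.19 in DBA/2J. By 1441915_s_at they lay between −0.55 ± 0.35 in CBA/J and 0.54 ± 0.35 in DBA/2J. DBA/2J restricted replicate 6, whose array stood apart, read 8.85 and 12.26 by the 2 probe sets. In CBA/J the 2 probe sets gave −0.07 ± 0.29 and −0.55 ± 0.35, which overlap within their errors, and the former gave 0.09 under quantile normalization and 0.20 in the adjusted fit.

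G0s2, the lipase inhibitor, had lower means on restriction in 5 of 6 strains. In 129S1/SvImJ, controls ranged from 13.69 through 14.71 to 15.45 and restricted mice from 11.93 through 12.63 to 13.94, with 6 of 8 below the lowest control. The difference there was −1.71 ± 0.37, or 3.26-fold. C57BL6/J differed by −0.80 ± 0.37, DBA/2J by −0.71 ± 0.37, CBA/J by −0.43 ± 0.37 and C3H/HeJ by −0.22 ± 0.37, whereas B6C3F1/J differed by 0.05 ± 0.37. The CBA/J difference was −0.47 under quantile normalization and −0.02 in the adjusted fit. The average over strains was −0.64 ± 0.15 (95% interval −0.93 to −0.34). C3H/HeJ had the lowest level on both diets, at 12.78 ± 1.27 and 12.57 ± 0.51, and DBA/2J the highest, at 14.59 ± 0.88 and 13.87 ± 0.50, with neighbouring strains overlapping.

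Mogat1, an acyltransferase scarce in lean adult liver and known to be raised in fatty liver, was the only one of the 10 genes with a lower mean on restriction in all 6 strains. Its average difference was −0.97 ± 0.18 (95% interval −1.32 to −0.61), or 1.96-fold, and it was −1.03 without CBA/J. In 129S1/SvImJ, controls ranged from 8.39 through 8.78 to 9.48 and restricted mice from 6.56 through 7.21 to 8.17, with no overlap and a difference of −1.60 ± 0.44. In C57BL6/J, 7 of 8 restricted mice lay below the lowest control of 8.00, and the difference was −1.31 ± 0.44. B6C3F1/J differed by −1.12 ± 0.44, DBA/2J by −0.87 ± 0.44, CBA/J by −0.65 ± 0.44 and C3H/HeJ by −0.25 ± 0.44. In CBA/J it was −1.35 ± 0.46 under quantile normalization, which passed the threshold, and −0.93 in the adjusted fit, which did not. The restricted groups of CBA/J and DBA/2J and both groups of C3H/HeJ were dim. On the control diet 3 strains lay close together at the top, 129S1/SvImJ at 8.82 ± 0.35, C57BL6/J at 8.69 ± 0.41 and B6C3F1/J at 8.66 ± 0.45, and the gap of 1.32 to DBA/2J at 7.34 ± 0.37 was larger than either SD.

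Fitm2, which is needed for droplets to bud, had the least spread between mice of a group, with a median SD of 0.31. Its clear difference was in CBA/J, where controls ranged from 10.84 through 11.08 to 11.27 and restricted mice from 11.38 through 11.72 to 12.10, with no overlap. The difference was 0.71 ± 0.17, and it was 0.84 under quantile normalization and 0.77 in the adjusted fit. In the other 5 strains it lay between −0.20 in C57BL6/J and 0.35 in B6C3F1/J. The average of 0.18 ± 0.07 rested on CBA/J, since without that strain it was 0.07 ± 0.08. DBA/2J had the lowest level on both diets, at 10.55 ± 0.26 and 10.65 ± 0.16.

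**Figure D3:**
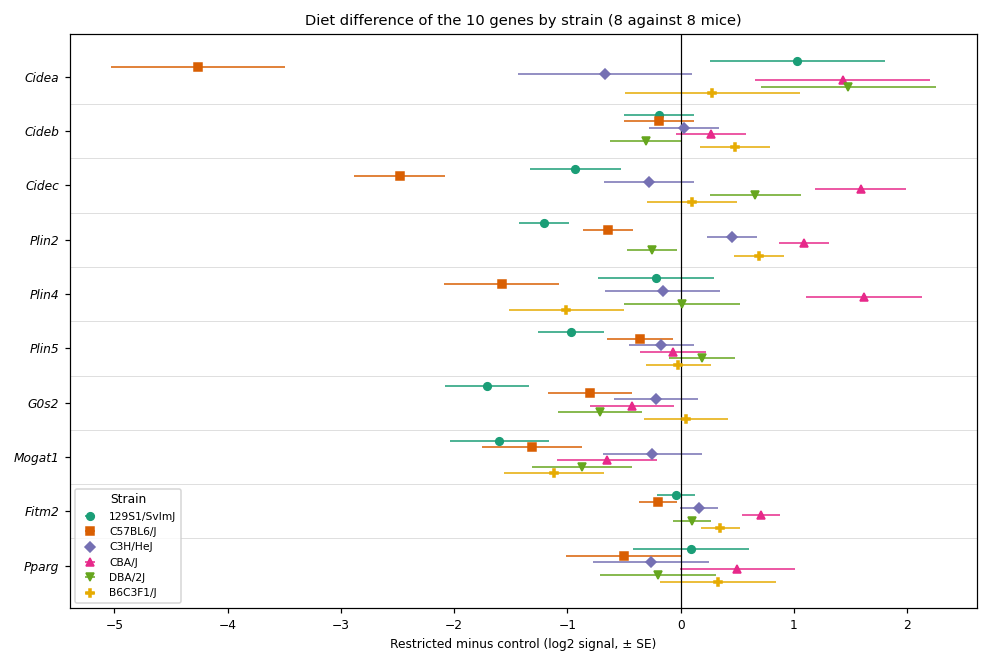
Restricted minus control log2 signal (horizontal axis, ± SE of the fit) for each of the 10 genes (vertical axis) in each strain, 8 against 8 mice. C57BL6/J lies at the far left for Cidea (−4.26) and Cidec (−2.48), 129S1/SvImJ for Plin2 (−1.21), Plin5 (−0.97), G0s2 (−1.71) and Mogat1 (−1.60), and CBA/J at the far right for Cidec (1.59), Plin2 (1.09), Plin4 (1.62) and Fitm2 (0.71).

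Pparg differed between strains far more than between diets. On the control diet C57BL6/J had 8.84 ± 0.41, B6C3F1/J 8.04 ± 0.91, DBA/2J 7.98 ± 0.47 and 129S1/SvImJ 7.37 ± 0.39. CBA/J and C3H/HeJ had 4.47 ± 1.73 and 3.89 ± 1.40, both dim, and 0 of 8 mice reached the array median in any of the 4 groups of these strains. The gap between 129S1/SvImJ and CBA/J was 2.90, and their ranges did not overlap on the control diet. C57BL6/J controls ranged from 8.17 through 9.0 to 9.34, and C3H/HeJ controls from 2.20 through 3.75 to 5.72. Diet differences lay between −0.50 ± 0.51 in C57BL6/J and 0.50 ± 0.51 in CBA/J, with an average of −0.01 ± 0.21 (95% interval −0.43 to 0.41). The CBA/J difference turned to −0.32 under quantile normalization and was 0.97 in the adjusted fit. The level of Pparg rests on 1 probe set.

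B6C3F1/J carries a C57BL6/J and a C3H/HeJ copy of each autosomal gene, so its level was set beside the mean of the parent strains on the linear signal scale. For Pparg on the control diet, B6C3F1/J had a signal of 301.85 ± 139.41, against 472.43 ± 122.64 in C57BL6/J, 21.58 ± 18.13 in C3H/HeJ and 247.0 for the mean of the parents. The difference from the mean of the parents was within 1 SD. These controls include replicate 2, whose array stood apart, at a low log2 signal of 6.12 with the next mouse at 7.61. On the restricted diet B6C3F1/J had 362.92 ± 150.59, near C57BL6/J at 334.41 ± 93.69, while the mean of the parents was 177.18. Cidea was different, since B6C3F1/J controls had a signal of 41.47 ± 66.97, close to C3H/HeJ at 45.64 ± 57.21 and far from C57BL6/J at 646.32 ± 573.27. Cidec in B6C3F1/J controls was 136.88 ± 48.36, also nearer to C3H/HeJ at 87.14 ± 39.19 than to C57BL6/J at 686.27 ± 241.38. Mogat1 went the other way, at 421.69 ± 121.42 against 427.64 ± 118.93 in C57BL6/J and 133.49 ± 83.41 in C3H/HeJ. In controls the cross thus lay below the mean of the parents for Cidea and Cidec and above it for Pparg and Mogat1. On restriction that order did not hold for Cidea and Cidec, since the mean log2 signal of the cross was above that of both parents for 8 of the 10 genes (all but Plin4 and Plin5). In 0 of these 8 was it above by more than the SDs of the cross and of the higher parent. The share of all genes above both parents was not computed, so nothing is read from the count of 8. The array median of restricted mice averaged 6.59 in the cross, 6.38 in C57BL6/J and 6.44 in C3H/HeJ. The widest gaps were in Plin2, at 14.84 ± 0.55 against 13.50 ± 0.28 in C57BL6/J and 14.30 ± 0.20 in C3H/HeJ, and in Cideb, at 14.00 ± 0.19 against 12.46 ± 0.50 and 13.68 ± 0.37.

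**Figure D4:**
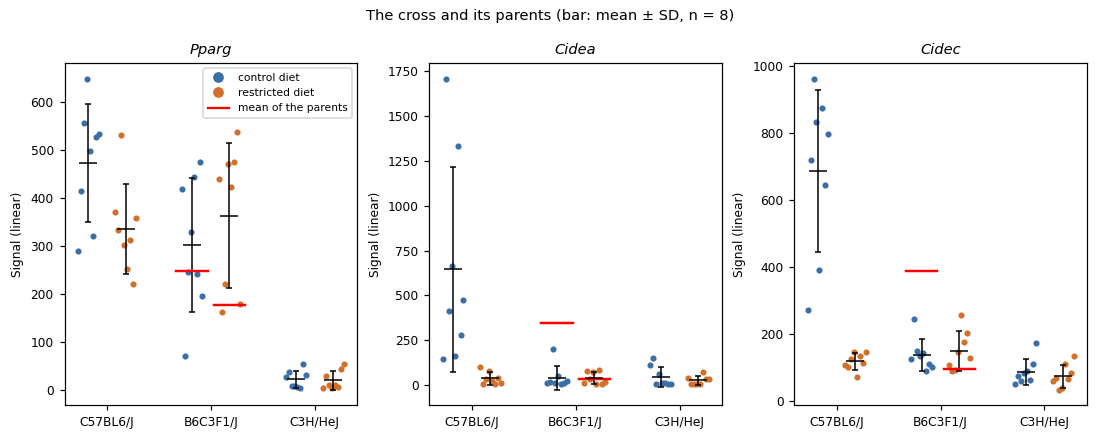
Linear signal (vertical axes) of Pparg, Cidea and Cidec in C57BL6/J, B6C3F1/J and C3H/HeJ on both diets, with 1 point per mouse, black bars for mean ± SD of 8 mice and red lines for the mean of the parent strains. On the control diet the cross lies above the red line for Pparg (301.85 against 247.0) and below it for Cidea (41.47 against 345.98) and Cidec (136.88 against 386.7), and on restriction it lies above it for Pparg (362.92 against 177.18), Cidea (38.73 against 30.87) and Cidec (149.34 against 95.52).

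Counted over strains, the calls of the limma fit at adjusted p under 0.05 over all 14816 genes describe which strain held which difference. In 129S1/SvImJ 4 of the 10 genes were called, all lower (Plin2, Plin5, G0s2 and Mogat1), where 2.47% of all genes were called lower. In C57BL6/J all 10 differences were negative, with a median of −0.72 against −0.02 for all genes, and 2 were called (Cidea and Cidec), where 1.85% of all genes were called lower. In CBA/J 4 were called, all higher (Cidec, Plin2, Plin4 and Fitm2), where 25.1% of all genes were called higher. In B6C3F1/J 1 was called higher (Plin2, a call lost in several fits as given above), where 3.35% of all genes were. In C3H/HeJ (1.95% of all genes called) and DBA/2J (6.75%) limma called 0 of the 10. The unadjusted 95% interval left out 0 for 1 gene in each of these strains, Plin2 in C3H/HeJ (0.01 to 0.88) and Mogat1 in DBA/2J (from −1.74 to just under 0). For the average over strains 3 of the 10 were called, against 27.6% of all genes. Fitm2 was higher, where 15.2% of all genes were, and G0s2 and Mogat1 were lower, where 12.4% were. Without CBA/J the average for Fitm2 was no longer called, and that for Cidec went from −0.22 ± 0.16 to −0.59 ± 0.16 and was called.

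The 8 restricted and 8 control mice did not overlap for Mogat1 in 129S1/SvImJ, where 1.11% of all genes were likewise lower with no overlap. The same was true of Cidea and Cidec in C57BL6/J (1.31% of all genes) and, with restricted mice higher, of Plin2 and Fitm2 in CBA/J (6.13%). In C3H/HeJ (1.22% in either direction), DBA/2J (0.776%) and B6C3F1/J (1.21%) the groups overlapped for all 10 genes. The strain-by-diet term was called for Cidea, Cidec, Plin2, Plin4 and Fitm2, where it was for 23.9% of all genes. Without CBA/J it was called for Cidea, Cidec and Plin2, where 1.55% of all genes were. On the control diet all 10 genes differed between strains, where 43.6% of all genes did. These contrasts chose the genes, so nothing is read from the shares.

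Mice of the same group also differ from one another, and those differences did not enter the choice of the genes. With group means removed, 12 of the 45 pairs of genes passed a two-sided permutation test within groups after adjustment, all with positive r. How often pairs of other genes pass was not computed, so the count of 12 is not read as particular to these genes. Over 96 mice the 45 pairs had a median Pearson r of 0.13. The highest was Cideb with Plin2, at r = 0.71 and Spearman's rho = 0.66 (both permutation p = 1e-05, the smallest that 100000 draws can give, adjusted p = 0.00015 and 0.00022). Without the 2 mice farthest out it was 0.62, and it was 0.76 in control and 0.63 in restricted mice. The lowest was Cideb with Mogat1, at r = −0.15 and rho = −0.11 (permutation p = 0.095 and 0.26, adjusted p = 0.21 and 0.44). Plin2 also went with Fitm2 (r = 0.54, rho = 0.53, adjusted permutation p = 0.00015 and 0.0003). Plin5 went with G0s2, the coat protein and the inhibitor that both act on adipose triglyceride lipase (r = 0.49, rho = 0.55, adjusted permutation p = 0.00015 and 0.00022). Cidec went with Plin4 at r = 0.37 and rho = 0.36 (adjusted permutation p = 0.00081 and 0.0028). The pairs named in these last 3 sentences were chosen after their values were seen.

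The pair Cidea and Cidec, which differed together between C57BL6/J groups, was weakly related within groups, at r = 0.26 and rho = 0.20 (permutation p = 0.0064 and 0.066, adjusted p = 0.026 and 0.17). Without the 2 mice farthest out r was 0.22, and without CBA/J it was 0.20 with an adjusted permutation p of 0.17. Without DBA/2J restricted replicate 6 it was 0.21 with an adjusted permutation p of 0.083. The neighbours Plin4 and Plin5 had r = 0.29 and rho = 0.33 (permutation p = 0.023 and 0.0024, adjusted p = 0.073 and 0.0098). No relation of Pparg to the genes known to respond to it passed the test, with r = −0.06 for Cidea, 0.04 for Cidec, −0.01 for Mogat1 and 0.05 for Plin4 (rho −0.07, 0.16, 0.05 and 0.06, adjusted permutation p = 0.83, 0.84, 0.95 and 0.83 for r). Pparg was dim in 4 of the 12 groups and Cidea in 11. Differences between mice at dim signal are uncertain, so these values cannot show that a relation is absent. Array medians moved with some genes within groups, most with Cideb (r = −0.48) and Cidec (0.32). In the adjusted fit 15 pairs passed, and Cideb with Plin2 was 0.74.

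**Figure D5:**
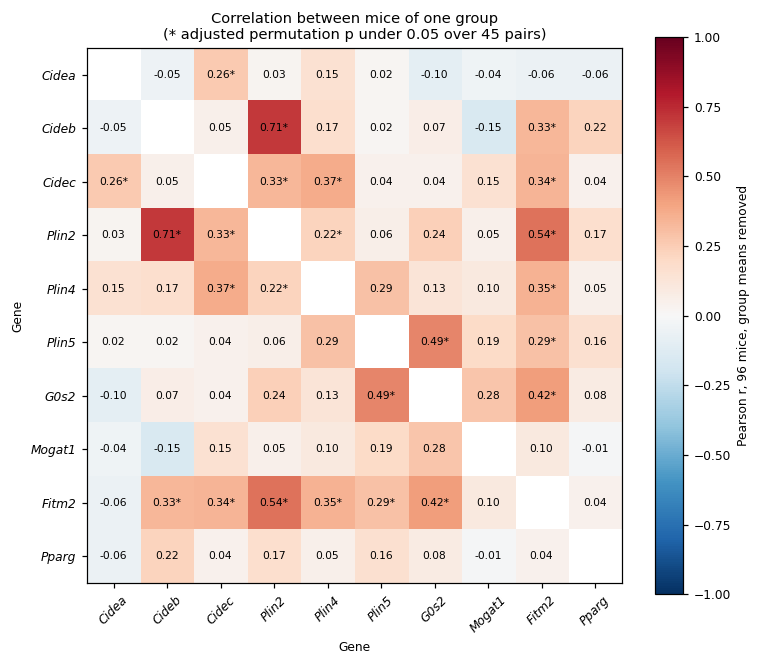
Pearson r between each pair of the 10 genes over 96 mice with group means removed, as colour and number, with a star where the adjusted permutation p over 45 pairs was under 0.05. Cideb with Plin2 (0.71), Plin2 with Fitm2 (0.54) and Plin5 with G0s2 (0.49) stand out, and the row of Pparg holds no star.

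Genes whose level followed the same course over the 12 group means are given as a description. For Cidea these were Mmp12, a macrophage elastase (r = 0.953), Gbp3, an interferon-induced GTPase (0.856), and Ubd, a ubiquitin-like protein induced by inflammatory cytokines (0.828). Each was highest in C57BL6/J controls and lower in restricted mice of that strain, Mmp12 at 6.601 and 4.725, Gbp3 at 8.982 and 7.72 and Ubd at 7.902 and 6.279. Mmp12 was dim in all 12 groups and Ubd in restricted C57BL6/J mice, so the sizes of their differences are uncertain. Cidea itself was dim in 11 of the 12 groups. For Cidec they were Gm26782 (0.852), S100a4, a calcium-binding protein (0.849), and Aatk, a kinase (0.846). Gm26782 was dim in every group (highest mean 6.427), and S100a4 and Aatk had dim groups (lowest means 4.105 and 5.88). For Mogat1 they were Vwa8 (0.876), Srr, serine racemase (0.871), and Cpt2, which takes part in the import of fatty acids into mitochondria (0.867). For Plin2 they were Agpat2, an enzyme of phosphatidic acid synthesis (0.868), Cxxc5 (0.856) and Acad12 (0.852). For Pparg they were the class I histocompatibility genes H2-D1 (0.972) and H2-K1 (0.931), and Hsd17b13, a droplet protein of liver cells (0.929). Pparg itself was dim in both groups of C3H/HeJ and CBA/J. The lowest means were in C3H/HeJ controls for H2-D1, CBA/J controls for H2-K1 and CBA/J restricted mice for Hsd17b13. An r over group means can thus reflect a shared difference between strains, and any link of these genes to Pparg was not tested.

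Other genes of fat handling were taken from 7 lists, with 110 of 123 genes measured, and their values come from the same fit. These lists, and the cell markers further below, were chosen with earlier results of these data known. Their counts and p-values are therefore a description and no independent test. Averaged over strains, 32 rose and 28 fell. The lipogenic list moved most, with 17 of 21 genes higher and 0 lower and a median difference of 0.72 against 0.07 for all genes. Acss2, which makes acetyl-CoA from acetate, rose by 1.97 ± 0.15 (limma, adjusted p = 2.38e-20), and Acly, which makes it from citrate, rose by 1.80 ± 0.14 (adjusted p = 5.88e-20). Srebf1, the regulator of this pathway, rose by 1.02 ± 0.12 (adjusted p = 1.95e-11). All 3 were higher in 6 of 6 strains.

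Targets of PPAR-alpha, the receptor of fat burning, moved the other way, with 12 of 22 lower, 1 higher and a median of −0.39. Vnn1, a pantetheinase, fell by 1.89 ± 0.11 on the log2 scale (limma, adjusted p = 1.17e-27) and Slc25a20, the carnitine carrier of mitochondria, fell by 0.71 ± 0.07 (adjusted p = 3.2e-15). Pdk4, which holds back glucose oxidation, was the gene that rose (0.49 ± 0.17, adjusted p = 0.0265). The mRNA of Ppara itself differed by 0.17 ± 0.11 (adjusted p = 0.284). In 129S1/SvImJ 12 of these 22 targets fell and 0 rose, with a median of −0.85 against 0.05 for all genes, of which 2.47% were called lower. In C57BL6/J 8 fell and 0 rose, with a median of −0.55 against −0.02 for all genes, of which 1.85% were called lower. In DBA/2J, where 0 of the 10 genes were called, 7 targets fell and 0 rose, with a median of −0.38 against 0.03. Falls numbered 2 in C3H/HeJ and 3 in B6C3F1/J, with 0 rises in both and medians of −0.15 and −0.03. Any link of these targets to the 10 genes was not tested. In CBA/J 9 rose and 5 fell, with a median of 0.14 against 0.31 for all genes, of which 25.1% were called higher.

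Among 17 other genes of droplet coat and assembly, 3 rose and 4 fell on average, with a median of 0.08. Ubxn4 (−0.65 ± 0.05, limma adjusted p = 8.82e-21) and Fitm1, the relative of Fitm2 (−0.80 ± 0.13, adjusted p = 2.78e-07), fell. The fall of Fitm1 varied with strain (strain-by-diet adjusted p = 0.00502), from −1.67 ± 0.31 in DBA/2J and −1.45 ± 0.31 in C57BL6/J to 0.11 ± 0.31 in CBA/J (0.28 under quantile normalization and 0.92 in the adjusted fit). Bscl2, the seipin gene, rose by 0.44 ± 0.10 (adjusted p = 0.000513), and without CBA/J its difference of 0.30 did not pass. Plin3, the perilipin found in most tissues, rose by 0.30 ± 0.08 (adjusted p = 0.00284), but without CBA/J it differed by 0.15 with an adjusted p of 0.32. Its differences were 1.06 ± 0.20 in CBA/J (1.20 under quantile normalization and 1.55 in the adjusted fit) and −0.22 ± 0.20 in C57BL6/J (strain-by-diet adjusted p = 0.000918). Values for Dgat2, Hilpda and Mogat2 were −0.02 ± 0.08, 0.08 ± 0.15 and 0.21 ± 0.26 (adjusted p = 0.884, 0.75 and 0.599).

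Of 12 genes of lipolysis and lipophagy, 4 rose and 5 fell. Pnpla2, the adipose triglyceride lipase that G0s2 inhibits, rose by 0.63 ± 0.13 (limma, adjusted p = 3.67e-05) and was higher in 6 of 6 strains, whereas G0s2 itself was lower by 0.64 ± 0.15. Its activator Abhd5 rose by 0.29 ± 0.09 (adjusted p = 0.0152) by its brightest probe set, but the mean over its probe sets differed by −0.05, and under quantile normalization it did not pass. Aadac, a lipase of the endoplasmic reticulum, rose by 0.44 ± 0.08 (adjusted p = 6.19e-06). Mgll, the monoglyceride lipase, fell by 0.92 ± 0.07 (adjusted p = 7.31e-19) and the carboxylesterase Ces1f fell by 0.56 ± 0.07 (adjusted p = 9.31e-11).

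Of 15 other genes linked to PPAR-gamma and fat storage, 2 rose and 1 fell, with a median of −0.05. Vldlr, a lipoprotein receptor, rose by 1.07 ± 0.13 (limma, adjusted p = 6.37e-11), Angptl4 rose by 0.19 ± 0.07 (adjusted p = 0.042), and the fatty acid binding protein Fabp2 fell by 0.73 ± 0.08 (adjusted p = 3.46e-12). Cd36, the fatty acid transporter, differed by −0.19 ± 0.10 on average (adjusted p = 0.174) and varied with strain (strain-by-diet adjusted p = 1.37e-05). It fell by 1.56 ± 0.25 in CBA/J (limma, adjusted p = 4.27e-07), and the difference there was −1.35 under quantile normalization and −0.66 in the adjusted fit (adjusted p = 1.17e-05 and 0.015). Fabp4, the adipocyte binding protein, differed by 0.03 ± 0.12 on average and by −0.97 ± 0.29 in CBA/J (adjusted p = 0.886 and 0.00466). In the adjusted fit the CBA/J difference was −0.54 and did not pass (limma, adjusted p = 0.198).

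The export and regulator lists moved in both directions. Of 11 genes of lipoprotein export, 3 rose and 3 fell. Tm6sf2, a fatty liver gene, rose by 0.56 ± 0.15 (limma, adjusted p = 0.0022) and P4hb by 0.24 ± 0.09 (adjusted p = 0.0287), while Apobec1 fell by 0.33 ± 0.09 (adjusted p = 0.00166) and Sec22b fell by 0.35 ± 0.09 (adjusted p = 0.00126). Of 12 genes that act on Pparg or its activity, 2 rose and 3 fell, among them Ppargc1a (0.47 ± 0.09, adjusted p = 8.28e-06), Nr0b2 (0.44 ± 0.13, adjusted p = 0.00606), Ahr (−0.31 ± 0.08, adjusted p = 0.000759) and Jun (−0.32 ± 0.11, adjusted p = 0.018). Without CBA/J, the differences of P4hb (0.17), Sec22b (−0.24), Nr0b2 (0.29) and Ahr (−0.19) did not pass.

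Several of the 10 genes are abundant in adipocytes, so markers of adipocytes and of other cells were measured on the same arrays. Of 12 adipocyte genes listed and 10 on the array, Adipoq, Lep, Retn, Aqp7, Slc7a10 and Ucp1 were dim in all 12 groups. Others of the list were not, with group means of 8.57 to 10.51 for Fabp4, 8.27 to 9.71 for Lipe and 13.73 to 15.20 for Pck1. Acvr1c was dim in some groups. In C57BL6/J, where Cidea and Cidec were lower on restriction, the mean log2 signal of the 7 tested adipocyte markers differed by −0.04 (two-sided exact permutation p = 0.84, adjusted p = 0.86 over 54 comparisons). The summed signal of the list ran from 14467.6 to 34942.7 in C57BL6/J controls and from 20908.4 to 31505.8 in restricted mice, but Pck1, which liver cells also express, made up 86.9% to 96.6% of it in the controls and 88.5% to 95.6% in restricted mice. Without Pck1 it ran from 1181.1 to 2113.3 and from 1324.1 to 2411.9. In the same strain the Kupffer and other macrophage score differed by −0.67 (exact permutation p = 0.034, adjusted p = 0.12) and the lymphocyte score by −0.50 (exact permutation p = 0.016, adjusted p = 0.073). Their part in the C57BL6/J differences was not tested.

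In CBA/J many scores moved together, though not all. The hepatic stellate (−0.05), liver endothelial (0.17) and Kupffer and other macrophage (0.43) scores did not pass (exact permutation, adjusted p = 0.71, 0.35 and 0.086). The adipocyte score was higher on restriction by 0.72 (exact permutation p = 0.0045, adjusted p = 0.041), but so were the hepatocyte score by 1.43, the lymphocyte score by 1.40, the skeletal muscle score by 1.26, the exocrine pancreas score by 1.19 and the cholangiocyte score by 1.18 (exact permutation, adjusted p from 0.0042 to 0.0067). The summed adipocyte signal ran from 7927.6 to 19695.7 in CBA/J controls and from 31558.6 to 48580.7 in restricted mice. Without Pck1 it ran from 1210.9 to 1713.1 and from 1549.9 to 2309.7, so that those ranges overlapped. Averaged over strains, 6 of the 9 marker lists passed, and without CBA/J 2 did. The part of these markers and of the array median in the CBA/J values of Cidec, Plin2, Plin4 and Fitm2 was not tested.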

How the data were processed

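The authors deposited MAS5 signals, which are intensities on a linear scale, per the submitters' processing notes, and no version of MAS5 was found in the sources used here. The authors labelled total RNA for hybridisation, per the labels' protocols. The trimmed mean of every array (2% off each end) was 500, so the signals arrived scaled.

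From 45101 probe sets, 64 controls were dropped, and 32999 with a signal at or above the array median in at least 8 of 96 arrays were kept. A single symbol was given for 34958 probe sets, more than 1 for 932 and no symbol for 9211. Gene identifiers tied 34754 of them to the gene table of GRCm38.p6, with 0 symbols altered. The kept probe set with the highest mean stood for its gene, leaving 14816 genes.

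A mean for each of the 12 labelled groups was fitted to log2 signals of all 96 arrays with limma 3.58.1 in R 4.3.3 (eBayes with trend and robust variances), with Benjamini-Hochberg adjustment over all genes. Correlations used log2 signals less the group mean and 100000 two-sided permutations of mice within groups. Marker scores used 12870 exact splits within a strain (smallest p 0.00016) or 100000 permutations for the average (Python 3.11.15, numpy 2.4.6, scipy 1.17.1). The number of arrays limits the precision. The labels give every mouse its own sample, so the spread is between mice.

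The 10 genes, the lists and the markers were chosen with earlier results of these data known. The rule for other named genes took from each list the 2 called higher and the 2 called lower with the smallest p in the averaged effect, a set of 10 always named (Ppara, Srebf1, Cd36, Pnpla2, Abhd5, Plin3, Mogat2, Dgat2, Hilpda and Fabp4), and the 3 genes most like Cidea, Cidec, Mogat1, Plin2 and Pparg over group means. Alternatives were quantile normalization, centring at the 75th percentile, 8.55 added before the log (the value below which 10% of signals lie), no filter, a filter of 48 arrays, the mean of probe sets, plain eBayes, array weights, the array median as covariate, a replicate block, and leaving out CBA/J or either array that stood apart.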

Additional observations from a re-analysis of the deposited data

Results flagged for a closer look

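The strain-by-diet term of the limma fit was called for 5 of the 10 genes, where it was for 23.9% of all genes. Without CBA/J it was called for 3 of the 10, where 1.55% of all genes were. These counts are given as a description because the genes were chosen with these values known. The highest strain difference exceeded the lowest by 5.74 for Cidea (DBA/2J against C57BL6/J), by 4.06 for Cidec, by 3.20 for Plin4 and by 0.91 for Fitm2 (each CBA/J against C57BL6/J), and by 2.30 for Plin2 (CBA/J against 129S1/SvImJ). Both DBA/2J groups were dim for Cidea. Under quantile normalization and in the adjusted fit, the CBA/J differences were 0.90 and 0.92 for Cidec and 1.04 and 1.13 for Plin4, none of them called. They were 0.84 and 0.77 for Fitm2 and 0.69 and 1.25 for Plin2, all called.

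Single mice stood apart from the rest of their group in 10 of 120 combinations of gene and group, by a gap to the nearest mouse, as a share of the group's range, above Dixon's 95% critical value, which chance gives in about 1 of 20 groups. B6C3F1/J control replicate 2, the array with a median of 8.66, was lowest for Cideb (10.82, next 13.80), Plin2 (12.86, next 14.20) and Pparg (6.12, next 7.61). DBA/2J restricted replicate 6, with an array median of 8.29, was highest for Cidec at 8.62. Cidec was also low in 129S1/SvImJ control replicate 2 (5.57) and restricted replicate 5 (5.61), CBA/J control replicate 8 (2.33) and DBA/2J control replicate 2 (3.62). Plin2 was low in C3H/HeJ restricted replicate 3 (13.84), and Mogat1 was high in DBA/2J control replicate 4 (8.15).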

How the results depend on the processing

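Over 14 called differences of the 10 genes, all 178 values under the alternatives kept their direction, and of 722 values of the other 56 differences, 691 did. Genes called for the averaged diet effect numbered 2589 without CBA/J against 4086, and for the strain-by-diet term 229 against 3534. Centring on the 75th percentile gave 505, 332 and 172 called genes in 129S1/SvImJ, C57BL6/J and C3H/HeJ (779, 550 and 289 as reported). Array weights gave 1513, 3085, 1407 and, in B6C3F1/J, 1152 (682 as reported), and the array median as a covariate gave 436 in C3H/HeJ. Of the 10 genes, C57BL6/J had 4 called with the offset, 6 with array weights and 1 with the stricter filter, which left Cidea out. The 1 call in B6C3F1/J, Plin2, became 0 under quantile normalization, no filter, mean of probe sets, plain eBayes, array weights, the array median as a covariate, without CBA/J, and without B6C3F1/J control replicate 2 (range 0 to 1 over the arrays left out). The strain-by-diet term called 3 of the 10 without CBA/J, where 1.55% of all genes were called. The Plin5 call in 129S1/SvImJ was lost under quantile normalization (−0.95), the Fitm2 average when centred on the 75th percentile (0.17), and Mogat1 was called in CBA/J under quantile normalization (−1.35). In control mice alone 3 pairs of genes passed, and without CBA/J 2 marker lists did. Abhd5 was −0.05 with the mean of probe sets. The cause of these changes was not tested. A replicate block gave 4117 and 3600 calls for the averaged effect and the strain-by-diet term and left the calls of the 10 genes as they were. Control and restricted mice of the same strain and number did not all deviate together (48 pairs of mice, r from −0.17 to 0.14, 5 over 0.1), so the numbers were not taken as pairs. Dim signals limit the differences of Cidea (11 of 12 group means below the mean array median) and of Cidec, Mogat1 and Pparg (4 each).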
